A study of Mus musculus with 8 samples.

Results

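Liver sinusoidal endothelial cells line the small blood channels between plates of hepatocytes. Their wall is pierced by open pores and has no continuous basement membrane, so plasma and lipoproteins reach the hepatocytes directly. These cells clear waste molecules from the blood through scavenger and Fc receptors, and they read vascular growth factors through receptor tyrosine kinases. In fatty liver disease they can lose their pores and take on features of an ordinary capillary, a change called capillarization.

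A panel of 10 genes of these cells was followed in whole liver: the stabilins Stab1 and Stab2, the hyaluronan receptor Lyve1, the lectin Clec4g, the Fc receptor Fcgr2b, the junction proteins Pecam1 and Cdh5, the receptor kinases Kdr and Tek, and Oit3. The genes were chosen by symbol and not by a value of the table, though with earlier results of these data known. All 10 symbols matched a row by Ensembl identifier, out of 14317 mouse genes. Stab1, Lyve1 and Fcgr2b are also made by macrophages, and Pecam1, Cdh5, Kdr and Tek by endothelium of every kind.

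The livers came from female mice, given as wild type in the labels and as control mice of a floxed line, with no hepatic knockout, in the study's methods. At 7 weeks of age the mice received either an empty silastic pellet (Con-Veh) or a 10 mm pellet of DHT (Con-DHT), an androgen that cannot be turned into estrogen. Both groups then ate a western diet (WD), rich in palm oil, fructose and cholesterol, for 8.5 weeks and were fasted overnight before the livers were taken. There were 4 livers per group with 1 RNA sequencing library each, and the study asked how androgen excess changes the liver of females on this diet. Libraries held between 14240001 and 17815944 reads on genes in Con-Veh and between 13123962 and 15205299 in Con-DHT. Values are normalized counts, the reads of a gene divided by the size factor of its library, and differences are log2 fold changes of Con-DHT over Con-Veh on the log2(value + 1) scale with their SE, tested with limma and adjusted over 14312 genes by the Benjamini-Hochberg method. Each of the 10 genes was counted in every library, with the fewest reads, 54, for Lyve1. Con-Veh 1 stood apart in this panel, as the lowest of its group in 7 of the 10 genes.

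Stab2 and Lyve1, both hyaluronan receptors of the sinusoidal wall, were lower in Con-DHT livers, and the other 8 genes did not pass the test. The mean of Stab2 fell by 31.1% and that of Lyve1 by 55.4%. Thus 2 of the 10 genes were called lower at an adjusted p of at most 0.05 and none higher, where 7.21% of all tested genes were called, 2.61% lower and 4.60% higher. In the main comparison the log2 fold change was below 0 in 8 of the 10. Its median over the 10 was -0.31, beside -0.0081 over all tested genes. Scaling by spike-in RNA raised the median of all genes by 0.20, and Fcgr2b (0.012) and Pecam1 (0.013) were then also above 0. Scaling moves all genes of a library together. Values given below relative to the shifted median therefore repeat the main comparison by construction and are no separate result. In whole liver, fewer cells of a type and less RNA per cell cannot be told apart.

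**Figure D1:**
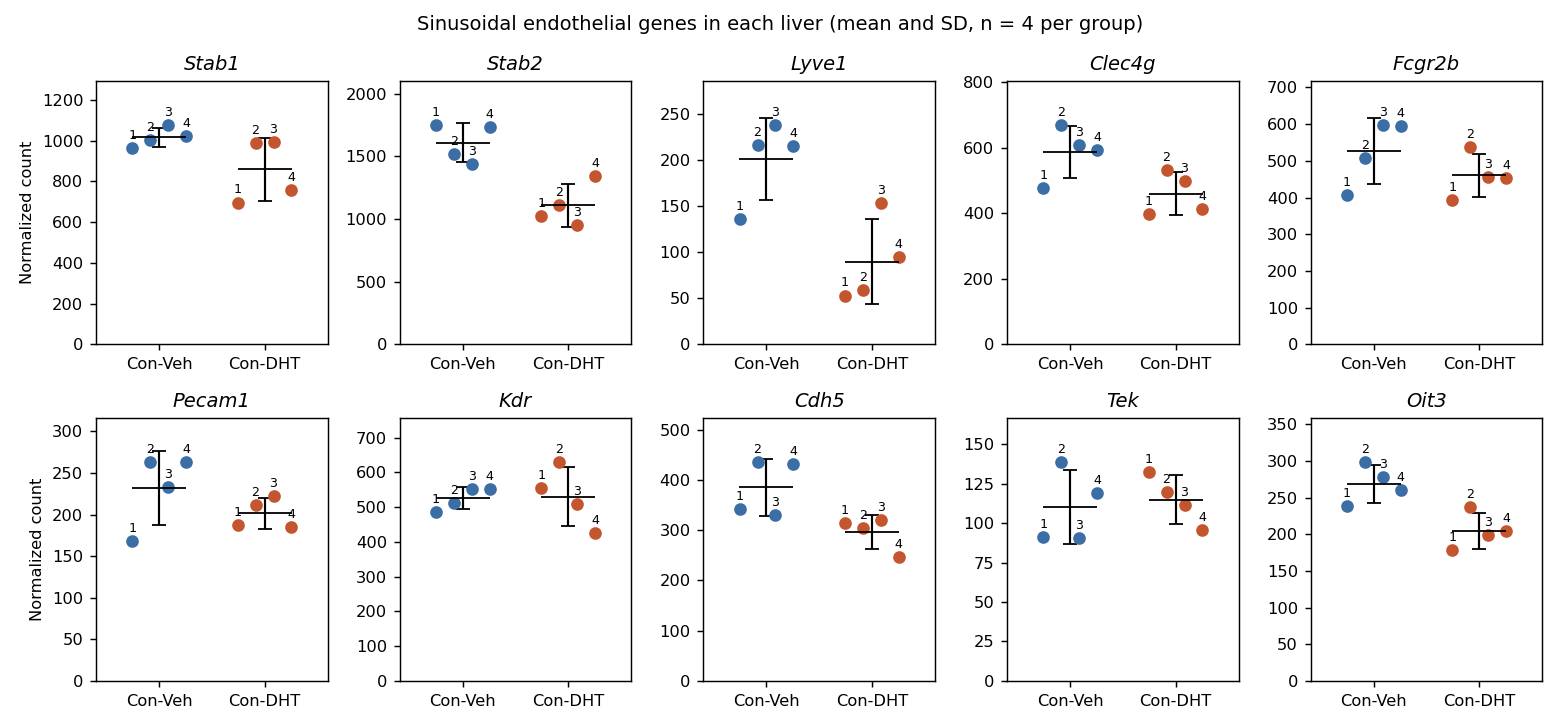
Normalized count of each of the 10 genes (vertical axes, starting at 0) in the 4 Con-Veh and 4 Con-DHT livers, with points numbered by liver and bars for the mean and SD. Every Con-DHT point lies below every Con-Veh point for Stab2, Cdh5 and Oit3, while the groups of the other 7 genes overlap.

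Stabilin 2 is the main endocytic receptor for hyaluronan in the liver and also takes up modified lipoproteins and heparin. The normalized count of Stab2 was 1752, 1519, 1441 and 1733 in Con-Veh livers 1 to 4. In Con-DHT livers 1 to 4 it was 1026, 1109, 955 and 1347. The highest Con-DHT liver lay below the lowest Con-Veh liver. The means were 1611 ± 155 (SD, n = 4) and 1109 ± 170 (SD, n = 4), and on the log2 scale Stab2 fell by 0.55 with an SE of 0.11 (95% interval -0.79 to -0.30, adjusted p = 0.018 by limma). It was also called by edgeR (adjusted p = 0.022) and DESeq2 (adjusted p = 0.00071) on the recovered reads. The limma call was lost without Con-Veh 4 (adjusted p = 0.056) and without Con-DHT 1 (adjusted p = 0.052), with log2 fold changes of -0.51 in both cases. It was also lost when libraries were scaled by spike-ins (log2 fold change -0.35, adjusted p = 0.88) or to an equal sum of pan-endothelial genes (log2 fold change -0.34, adjusted p = 0.26), settings that raised the median of all genes by 0.20.

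Lyve1 encodes the hyaluronan receptor used to mark lymphatic and sinusoidal endothelium. Its normalized count was 136, 216, 239 and 216 in Con-Veh livers 1 to 4 and 53.0, 59.0, 153 and 94.6 in Con-DHT livers 1 to 4. Con-DHT 3 was above Con-Veh 1, so the groups overlapped, and the other 3 Con-DHT livers were below all Con-Veh livers. From a mean of 202 ± 44.9 (SD, n = 4) to 89.9 ± 45.9 (SD, n = 4), Lyve1 fell by 1.26 log2 units with an SE of 0.31 (95% interval -1.95 to -0.56, adjusted p = 0.039 by limma), the lowest fold change of the 10. DESeq2 called it (adjusted p = 0.0036) and edgeR did not (adjusted p = 0.052). Leaving out 1 library kept the limma call in 2 of 8 cases, without Con-Veh 1 (adjusted p = 0.033) and without Con-DHT 3 (adjusted p = 0.0083). In the other 6 cases the adjusted p was between 0.064 and 0.10 and the log2 fold change stayed between -1.32 and -1.05.

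Stabilin 1, the paralog of stabilin 2, takes up modified lipoproteins and the matrix protein SPARC. Stab1 was at 965, 1005, 1078 and 1024 in Con-Veh livers 1 to 4 and at 697, 988, 996 and 758 in Con-DHT livers 1 to 4. Con-DHT 1 and 4 were below all Con-Veh livers, whereas Con-DHT 2 and 3 were above Con-Veh 1. The log2 fold change of -0.26 (SE 0.12, 95% interval -0.52 to 0.0033) did not pass the test (adjusted p = 0.22 by limma). It ran from -0.34 without Con-DHT 3 to -0.17 without Con-DHT 1 when single libraries were left out. By spike-in scaling it was -0.062, or -0.25 relative to the shifted median of all genes. Whether the paralogs differ in their response was not tested.

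Start site windows of both stabilin genes are shown to set the paralogs side by side. RefSeq promoter windows (GRCm38.p6, 250 bases before to 50 after the annotated start) were found for 6 of the 10 genes, Stab1, Stab2, Clec4g, Fcgr2b, Kdr and Tek. ETS factors, among them ERG and FLI1, act on endothelial genes, and the core motif AGGAAG was searched on both strands. It was in 3 of the 6 windows, those of Stab1, Stab2 and Clec4g, and in 35.4% of 32851 windows over all genes. The Stab2 window lies at chr10:87007893-87008192 and the Stab1 window at chr14:31168592-31168891, both on the minus strand and written 5′ to 3′ along the gene. Capitals mark the ETS letters, which start at base 211 of the Stab2 window, on the opposite strand, and at base 135 of the Stab1 window.
Stab2: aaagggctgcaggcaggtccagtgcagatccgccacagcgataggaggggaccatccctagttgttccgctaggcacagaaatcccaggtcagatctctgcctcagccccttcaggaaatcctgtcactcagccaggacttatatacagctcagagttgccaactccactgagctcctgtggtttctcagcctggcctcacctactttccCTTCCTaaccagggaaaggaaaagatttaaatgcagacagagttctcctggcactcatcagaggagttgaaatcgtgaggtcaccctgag
Stab1: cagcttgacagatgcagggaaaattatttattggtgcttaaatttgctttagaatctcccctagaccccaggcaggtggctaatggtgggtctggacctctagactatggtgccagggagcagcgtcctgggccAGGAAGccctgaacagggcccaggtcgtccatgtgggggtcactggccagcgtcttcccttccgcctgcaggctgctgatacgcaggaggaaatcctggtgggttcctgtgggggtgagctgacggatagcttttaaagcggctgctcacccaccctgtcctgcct
The GATA motif AGATAA was in the Tek window and in 11.2% of all windows. The STAT5 motif TTCNNNGAA was in none of the 6 and in 8.30% of all windows. These are matches of letters and say nothing of binding in these livers.

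Clec4g and Fcgr2b complete the receptors for blood-borne ligands. Clec4g encodes a C-type lectin of the sinusoidal wall, and its normalized count was 478, 670, 608 and 594 in Con-Veh livers 1 to 4 and 398, 531, 498 and 412 in Con-DHT livers 1 to 4. The means were 588 ± 80.0 and 459.9 ± 64.9 (SD, n = 4 each), and limma gave a log2 difference of -0.35 with an SE of 0.13 (adjusted p = 0.13). Only Con-Veh 1 lay within the range of the Con-DHT livers. Fcgr2b, the inhibitory Fc receptor through which these cells remove immune complexes, was at 407, 507, 598 and 596 in Con-Veh livers 1 to 4 and at 394, 538, 455 and 453 in Con-DHT livers 1 to 4. Its log2 fold change of -0.19 (SE 0.14, 95% interval -0.49 to 0.12) did not pass the test (adjusted p = 0.46 by limma). It was -0.30 without Con-Veh 1 and -0.12 without Con-DHT 1, and under spike-in scaling, which raised the median of all genes by 0.20, it was 0.012, or -0.18 relative to that median.

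Cdh5 and Pecam1 hold endothelial cells together. Cdh5, the cadherin of endothelial junctions, was at 342, 436, 330.4 and 432 in Con-Veh livers 1 to 4 and at 314, 305, 319 and 247 in Con-DHT livers 1 to 4. Its groups did not overlap, but the log2 fold change of -0.37 (SE 0.12, 95% interval -0.65 to -0.10) missed the threshold (adjusted p = 0.10 by limma). Pecam1, an adhesion molecule of endothelium and blood cells, was at 168, 263, 233 and 264 in Con-Veh livers 1 to 4 and at 187, 211, 222 and 185 in Con-DHT livers 1 to 4. Con-Veh 1 was the lowest of all 8 livers, and limma gave a log2 difference of -0.18 with an SE of 0.15 (adjusted p = 0.50). It was -0.33 without Con-Veh 1 and -0.12 without Con-Veh 4, and 0.013 under spike-in scaling, or -0.18 relative to the shifted median of all genes.

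Oit3, which encodes a secreted zona pellucida domain protein of the liver, had groups that did not overlap. It was at 239, 299, 279 and 260.2 in Con-Veh livers 1 to 4 and at 179, 237, 199 and 204 in Con-DHT livers 1 to 4. The log2 fold change was -0.40 (SE 0.11, 95% interval -0.64 to -0.15), with an adjusted p of 0.063 by limma, 0.064 by edgeR and 0.034 by DESeq2. Stab2, Cdh5 and Oit3 were thus the 3 genes of the 10 with all Con-DHT livers below all Con-Veh livers, a pattern that 6.62% of the tested genes showed.

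Kdr and Tek, the receptor kinases for VEGF and for the angiopoietins, had fold changes near 0 in the main comparison. Kdr was at 486, 512, 551 and 553 in Con-Veh livers 1 to 4 and at 555, 631, 508 and 426 in Con-DHT livers 1 to 4. The Con-DHT livers included both the highest and the lowest value of all 8. The difference in Kdr was 0.00026 on the log2 scale, with a 95% interval from -0.25 to 0.26 (adjusted p = 1.0 by limma). Tek was at 91.2, 139, 90.8 and 119 in Con-Veh livers 1 to 4 and at 132, 120.0, 111 and 95.7 in Con-DHT livers 1 to 4, and its groups overlapped through most of their range. The log2 fold change of Tek was 0.07 (95% interval -0.30 to 0.45, adjusted p = 0.84 by limma). With spike-in scaling Kdr was at 0.20 and Tek at 0.27, or 0.011 and 0.083 relative to the shifted median of all genes. For both genes the sign turned when single libraries were left out, and intervals of this width leave room for differences of the size seen in Fcgr2b and Pecam1.

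**Figure D2:**
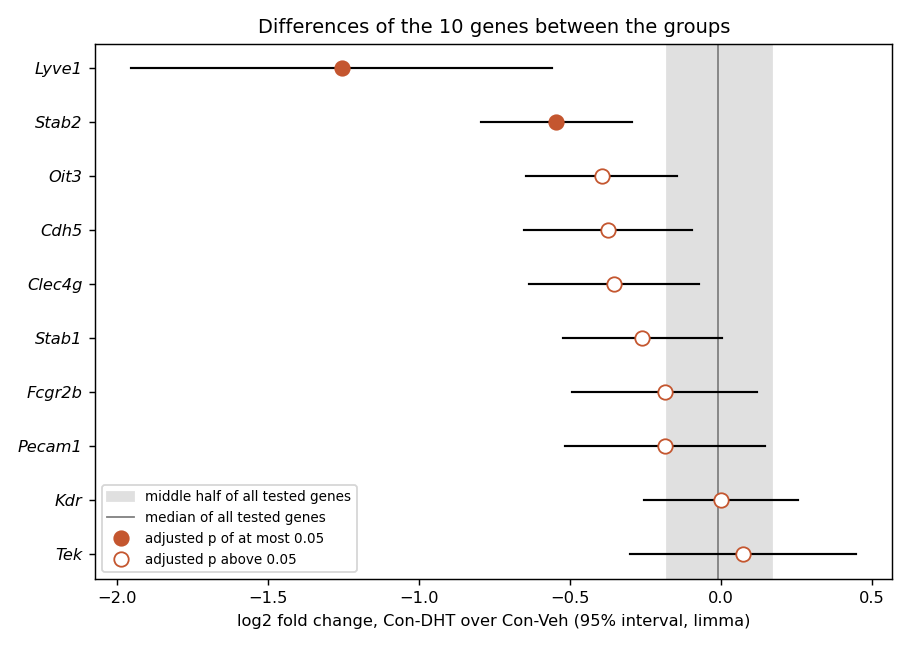
Log2 fold change of Con-DHT over Con-Veh (horizontal axis) with its 95% interval from limma for the 10 genes, in order of size. Filled points for Lyve1 at -1.26 and Stab2 at -0.55 passed the test, open points did not, the grey band holds the central 50% of all tested genes and the line is their median of -0.0081.

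Counted with other tests, 5 of the 10 genes were lower at an unadjusted p under 0.05 by limma and none higher, where 11.0% of all tested genes were lower at that level. With edgeR 1 gene was called lower, where 2.46% of all were, and with DESeq2 3 genes were called lower (Stab2, Lyve1 and Oit3), where 4.51% of all were. Summed over the 10 genes, the normalized count was 5064, 5567, 5447 and 5790 in Con-Veh livers 1 to 4 and 3936, 4729, 4418 and 4222 in Con-DHT livers 1 to 4. The sums of the groups did not overlap, with means of 5467 ± 304 and 4326 ± 334 (SD, n = 4 each) and a ratio of 0.791. Stab2 was the most abundant of the 10 genes by normalized count, not divided by gene length, and weighs most in this sum.

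Per kilobase of exon, the 10 genes spanned about an order of magnitude in Con-Veh livers. Clec4g had the highest level with 239 ± 32.5 normalized counts per kb (SD, n = 4), followed by Stab2 with 184 ± 17.7. A middle group of Stab1 (98.9 ± 4.56), Oit3 (96.5 ± 9.27), Cdh5 (91.6 ± 13.5) and Fcgr2b (91.0 ± 15.7) could not be put in order beyond their spread. Lyve1 (69.1 ± 15.4), Kdr (58.2 ± 3.58), Pecam1 (37.3 ± 7.22) and Tek (23.4 ± 4.97) followed. Among neighbours in this order, the ranges over livers were separate only between Stab2 and Stab1 and between Kdr and Pecam1. In Con-DHT livers Lyve1, at 30.8 ± 15.7 per kb, came below Kdr at 58.7 ± 9.50 and near Pecam1 at 32.3 ± 2.94, and Stab2, at 127 ± 19.5, remained second to Clec4g at 187 ± 26.4.

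**Figure D3:**
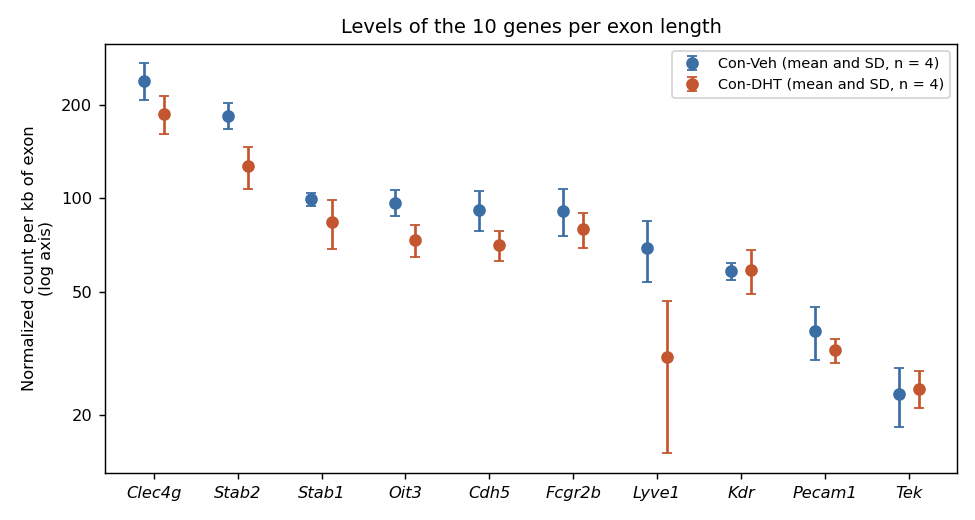
Normalized count per kilobase of exon (vertical log axis) for the 10 genes in Con-Veh and Con-DHT livers, as mean and SD of 4 livers each. Clec4g at 239 and Tek at 23.4 are the ends of the Con-Veh order. On this log axis, the widest gap between the groups is that of Lyve1, 69.1 against 30.8.

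Once the group means were subtracted, the genes varied together from liver to liver, with Stab2 as an exception. Over the 8 livers the median Pearson r of the 45 gene pairs was 0.43, and 33 pairs were above 0. The highest r was 0.906 for Cdh5 and Tek and the lowest -0.50 for Stab2 and Kdr. Stab2 had a mean r of -0.34 with the other 9 genes and each single r below 0, whereas Clec4g (0.52) and Pecam1 (0.49) had the highest means and Lyve1 had 0.15. All pairs share the same 8 libraries, size factors and the low Con-Veh 1, so these values describe the libraries only. In Con-DHT, liver 1 was the lowest of its group in 5 genes and liver 4 in 4 genes.

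**Figure D4:**
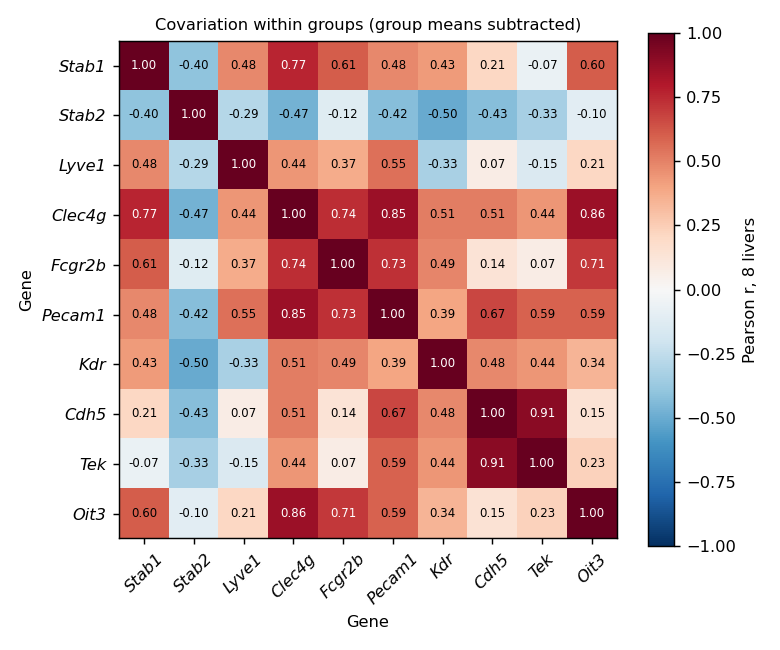
Pearson r between the 10 genes over 8 livers (both axes list the genes, color from -1 to 1), computed on log2(value + 1) after the group means were subtracted. Most squares are above 0, up to 0.91 for Cdh5 and Tek, and the row of Stab2 is below 0 throughout.

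Among the tested genes outside the 10, those with the highest mean r with the panel were Crebbp (0.59), Ift52 (0.58), Ghitm (0.58), Gm43690 (0.58), Chpt1 (0.57) and Pebp1 (0.57), over the same 8 livers, and none is in an endothelial list used here. Of the 6, Chpt1 passed the test between groups, with a log2 fold change of 0.47 (adjusted p = 0.032 by limma). The median over a list of this mean r was 0.32 for the 10 genes themselves. For the endothelial lists below it was 0.24 (other sinusoidal), 0.27 (pan-endothelial) and 0.28 (angiocrine and Notch). It was 0.046 for the VEGF and angiopoietin pathway and -0.0049 for continuous vessels.

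Other genes of sinusoidal endothelium were then read from the same comparison. Of 10 tested genes in that list, limma, edgeR and DESeq2 called none, 2 (Clec1b and Gpr182) were lower at an unadjusted p under 0.05 and the median log2 fold change was -0.15. Clec1b, a C-type lectin receptor for podoplanin, was lower in every Con-DHT liver with means of 168 ± 24.2 and 129 ± 8.24 (log2 fold change -0.37, SE 0.12, adjusted p = 0.10 by limma). Ehd3, an endocytic recycling protein of these cells and the most abundant of the list by normalized count, was at 660.3 ± 75.2 in Con-Veh and 737 ± 103 in Con-DHT (log2 fold change 0.15, adjusted p = 0.47 by limma). The summed counts of the list had a ratio of 0.966 and overlapped. In the same list, Cd209b and Clec4m were not analysed here.

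Among 25 pan-endothelial genes, which exclude the 10, 1 was called lower (4.0%, near the 2.61% of all tested genes) and none higher. In this list 19 genes had a log2 fold change below 0. The median of -0.14 lay between the quartiles of all tested genes, -0.18 and 0.17. The called gene was S1pr1, the sphingosine 1-phosphate receptor that steadies endothelial junctions. S1pr1 was at 723, 828, 792 and 1017 in Con-Veh livers 1 to 4 and at 618, 548, 650.1 and 426 in Con-DHT livers 1 to 4, with no overlap. All Con-DHT livers were below all Con-Veh livers for 2 of the 25 genes and for 6.62% of all tested genes. By limma, S1pr1 fell by 0.59 log2 units with an SE of 0.14 (adjusted p = 0.035), and the call was kept in 2 of 8 cases with 1 library left out, with adjusted p-values up to 0.089, and lost under spike-in scaling at a log2 fold change of -0.39 (adjusted p = 0.84), where the median of all genes shifted by 0.20. DESeq2 also called Robo4, a receptor of endothelial cells named here after its value was seen (log2 fold change -0.47, adjusted p = 0.072 by limma and 0.035 by DESeq2). Eng, a coreceptor for BMP9 and the most abundant of the list by normalized count, was at 889 ± 128 and 781 ± 95 (log2 fold change -0.18, adjusted p = 0.40 by limma). The list summed to 3731, 4639, 4929 and 4730 in Con-Veh livers 1 to 4 and to 3890, 4147, 4147 and 3436 in Con-DHT livers 1 to 4, a ratio of 0.866 with overlap.

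Set against that sum in the same liver, none of the 10 genes separated the groups. Lyve1 amounted to 4.43% ± 0.530 of the pan-endothelial sum in Con-Veh and 2.31% ± 1.12 in Con-DHT, and Stab2 to 36.4% ± 7.67 and 28.8% ± 7.10 (SD, n = 4 each). S1pr1, itself called lower, is part of that sum. Its means were 840 in Con-Veh and 561 in Con-DHT, beside mean sums of 4507.5 and 3905. When all libraries were scaled to an equal pan-endothelial sum, a setting chosen after the data were seen, Lyve1 was still called (log2 fold change -1.05, adjusted p = 0.040 by limma) and Stab2 was not (log2 fold change -0.34, adjusted p = 0.26 by limma). This scaling raised the median of all genes by 0.20. Scaling by spike-ins raised it by a like amount, 0.20, and there too Lyve1 was called (log2 fold change -1.06, adjusted p = 0.023) and Stab2 was not (log2 fold change -0.35, adjusted p = 0.88). Relative to the shifted median, the spike-in log2 fold change was -0.53 for Stab2 and -1.25 for Lyve1, which repeats the main comparison by construction. Of all genes called, 63.8% were higher in the main comparison, 83.9% after scaling to an equal total without Mup genes, 88.2% after spike-in scaling and 91.6% after pan-endothelial scaling.

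In the VEGF and angiopoietin pathway, the signals that Kdr and Tek read, none of 13 tested genes was called by limma or edgeR, 1 was higher at an unadjusted p under 0.05, DESeq2 called 1 higher and the median log2 fold change was -0.07. That gene was Plcg1, the phospholipase that acts below Kdr, at 794 ± 38.1 in Con-Veh and 980.0 ± 93.9 in Con-DHT (log2 fold change 0.30, SE 0.08, adjusted p = 0.054 by limma), with no overlap, where 8.49% of all tested genes had every Con-DHT liver above every Con-Veh liver. Vegfa, the main ligand of Kdr, was at 3513 ± 483 and 3128 ± 348 (log2 fold change -0.16 with adjusted p = 0.42 by limma, and a log2 fold change of 0.034 under spike-in scaling). Of 10 angiocrine and Notch genes, the signals that sinusoidal cells send to hepatocytes and to each other, none was called by limma, edgeR or DESeq2 and none had an unadjusted p under 0.05. Their median log2 fold change was 0.0040. Bmp6, the ligand that sets hepcidin, was at 54.5 ± 4.81 and 71.6 ± 16.8 (log2 fold change 0.36, adjusted p = 0.27 by limma), and Notch1 at 556 ± 122 and 495 ± 63.2 (log2 fold change -0.15 with adjusted p = 0.65 by limma, and a log2 fold change of 0.052 under spike-in scaling).

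Genes of continuous vessels, among them those that rise in capillarization, gave 2 lower calls and no higher call out of 14 tested. That was 14.3% lower, beside 2.61% of all tested genes, with a median log2 fold change of -0.08. The calls were Vcam1 and Icam1, adhesion molecules that activated endothelium and other cells present to leukocytes. Vcam1 was at 435, 355, 316 and 307 in Con-Veh livers 1 to 4 and at 194, 182, 235 and 227 in Con-DHT livers 1 to 4, and by limma it fell by 0.75 log2 units with an SE of 0.13 (adjusted p = 0.0084). Icam1 was at 402, 335, 266 and 271 in Con-Veh livers 1 to 4 and at 197, 118, 197 and 193 in Con-DHT livers 1 to 4, and by limma it fell by 0.86 log2 units with an SE of 0.19 (adjusted p = 0.025). Neither gene had overlapping groups, and 6.62% of all tested genes had every Con-DHT liver below every Con-Veh liver. The Vcam1 call was kept in 8 of 8 cases with 1 library left out and the Icam1 call in 6 of 8, lost without Con-Veh 1 (adjusted p = 0.057) and without Con-Veh 2 (adjusted p = 0.068). Under spike-in scaling, with its median shift of 0.20, neither was called, at log2 fold changes of -0.55 for Vcam1 (adjusted p = 0.57) and -0.66 for Icam1 (adjusted p = 0.35). Cav1, the main protein of caveolae, was named after its value was seen, with 173, 114, 81.9 and 64.4 in Con-Veh livers 1 to 4 and 181, 201, 161 and 295 in Con-DHT livers 1 to 4. Only Con-Veh 1 reached the range of the Con-DHT livers, and the log2 fold change of 1.01 (SE 0.29) had an adjusted p of 0.065 by limma, 0.077 by edgeR and 0.016 by DESeq2. Plvap, a protein of the diaphragms that span endothelial pores, was at 450, 415, 902 and 834 in Con-Veh livers 1 to 4 and at 614, 700, 558 and 585 in Con-DHT livers 1 to 4. Its log2 fold change of -0.00039 turned to 0.20 under spike-in scaling (adjusted p = 1.0 by limma in the main comparison).

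**Figure D5:**
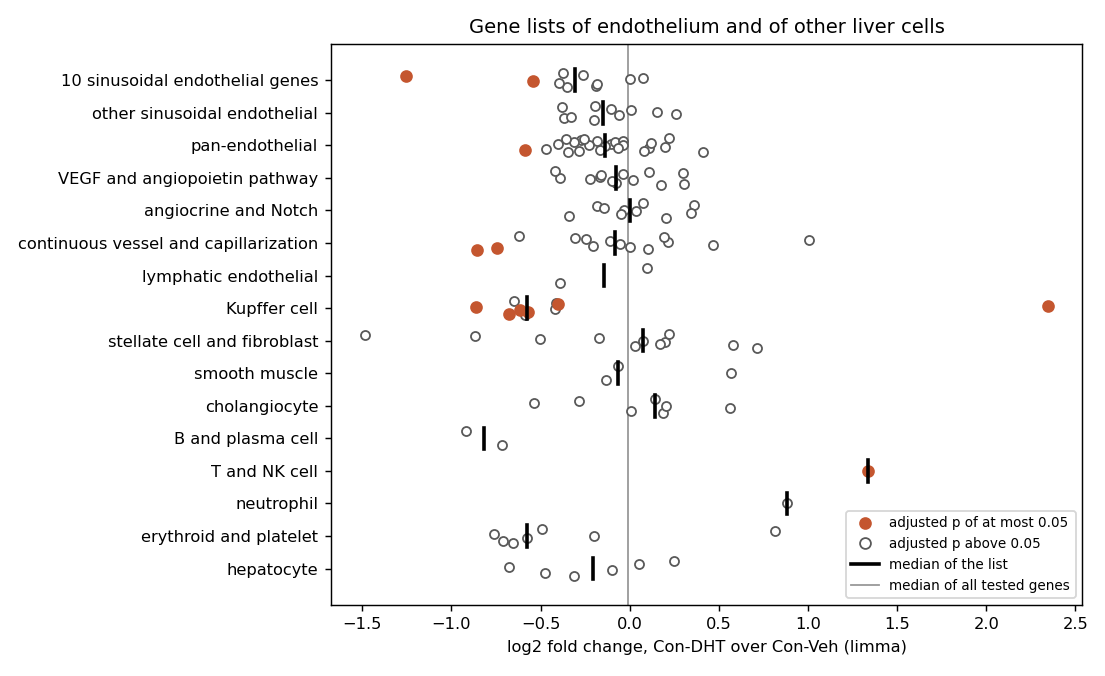
Log2 fold change of Con-DHT over Con-Veh (horizontal axis, limma) for every tested gene of the 10-gene panel, of the endothelial lists and of lists for other liver cells. Filled points passed the test, thick bars are list medians (-0.31 for the panel, -0.14 for pan-endothelial genes, -0.58 for Kupffer cell genes) and the thin line is the median of all tested genes.

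Kupffer cells, the macrophages inside the sinusoids, can also express Stab1, Lyve1 and Fcgr2b. Of 10 listed Kupffer genes 5 were called lower and 1 higher, with a median log2 fold change of -0.58. Cd5l, a secreted macrophage protein and the most abundant of the list, fell from 2767 ± 368 to 1529 ± 280 (log2 fold change -0.86, adjusted p = 0.0045 by limma). The complement receptor gene Vsig4 (-0.57), the lysosomal gene Cd68 (-0.61), the folate receptor gene Folr2 (-0.68) and the lectin gene Clec4f (-0.40) were the other 4 lower calls. The 4 genes that limma and edgeR did not call, Timd4, Adgre1, Marco and Csf1r, had log2 fold changes between -0.65 and -0.41. Of these, DESeq2 called Csf1r lower (adjusted p = 0.029). C6, a complement component that is secreted, rose from 327 ± 67.2 to 1827 ± 967 (log2 fold change 2.35, SE 0.32, adjusted p = 0.0023 by limma). The calls of Cd5l, Vsig4, Cd68 and C6 were kept in 8 of 8 cases with 1 library left out and those of Folr2 and Clec4f in 2 of 8, without Con-Veh 3 and without Con-DHT 1. Under spike-in scaling, with its median shift of 0.20, the 5 lower calls were lost (adjusted p between 0.31 and 0.93) at log2 fold changes from -0.66 for Cd5l to -0.21 for Clec4f, and that of C6 was kept. None of the 10 was at 0 in any library. The list summed to 8103, 8665, 6941 and 8082 in Con-Veh livers 1 to 4 and to 8250, 5707, 6007 and 7688 in Con-DHT livers 1 to 4, a ratio of 0.870 with overlap. Without C6, taken out after its value was seen, the sums were 7803, 8247, 6681 and 7752 against 6166, 4502, 5067 and 4609, a ratio of 0.667 with no overlap, and their part in the lower Stab2 and Lyve1 was not tested.

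The 2 tested lymphatic genes, which bear on Lyve1, were Prox1, a transcription factor that hepatocytes also make, at 2214 ± 421 and 2364 ± 399 (log2 fold change 0.10, adjusted p = 0.74 by limma), and Flt4, the receptor for VEGF-C, at 369.6 ± 76.1 and 286 ± 79.7 (log2 fold change -0.39, adjusted p = 0.31 by limma). Pdpn, Ccl21a and Mmrn1 were not analysed here, and the part of lymphatic vessels in the lower Lyve1 was not tested.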

How the data were processed

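RNA of 4 Con-Veh and 4 Con-DHT livers was sequenced with 1 library per mouse. Per the study's methods, the authors trimmed reads with Trimmomatic 0.36, aligned them with STAR 2.5.2b, took uniquely mapped exon reads to genes with featureCounts (Subread 1.5.2) and used DESeq2. The submitters' processing notes name GRCm39 as the build. Counting is not stated to use strand, so reads of overlapping genes cannot be told apart. The unit of the deposited table is a normalized signal, namely the reads of a gene divided by the size factor of its library. The table held 14371 features, 54 of them spike-ins, and its least counted feature had 81 reads in the 8 libraries together.

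Each value was a whole multiple of the worth of 1 read for 100% of values (tolerance 0.01 read), and edgeR 4.0.16 and DESeq2 1.42.0 were run on these recovered reads as alternatives; they called 1024 and 1569 genes. The main test was limma 3.58.1 in R 4.3.3 (eBayes with trend) on log2(value + 1) for the 14312 mouse genes whose mean reached 10, and an adjusted p (Benjamini-Hochberg) of at most 0.05 counted as a call. It called 1032 genes. The pseudocount of 1 shrinks the changes of low genes. Scripts were tested on simulated data. With 1 library per mouse, p-values rest on a spread in which mice and library preparation cannot be told apart. Under spike-in or pan-endothelial scaling this spread also holds that of the scaling. Libraries of a group differed by more than sampling noise (chi-square per degree of freedom 19.5 to 62.9 over 12 pairs).

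The 10 genes and all lists were chosen with earlier results of these data known. Named are the 10 genes. From each list came every gene with an adjusted p of at most 0.05 (at most 6). Without such a gene, the one with the smallest adjusted p was named. The most abundant gene of each list by normalized count and the 6 genes most correlated with the panel are named too. Genes named outside this rule were chosen after their values were seen. Tie1 and Ptprb are in 2 lists, and Flt4 too. Symbols, exon lengths and chromosomes came from GENCODE M21 (GRCm38) through Ensembl identifiers, with 14287 genes matched, and promoter windows from RefSeq (GRCm38.p6). No position was converted between builds. The floxed gene of the line is not reported here. Alternatives were other pseudocounts, filters and scalings (upper quartile, equal total without Mup genes, spike-ins, pan-endothelial sum), limma without trend, with array weights or with a replicate block, both count tools, and 1 library left out at a time.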

Additional observations from a re-analysis of the deposited data

Results flagged for a closer look

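Among 42 genes, the 10 of the panel and those the rule named from the lists, 6 of 84 groups of 4 livers held a liver far from the other 3 by Dixon's ratio (gap over range), and chance gives about 1 in 20. Plcg1 in Con-Veh had a ratio of 0.887, with liver 4 at 850.3 and the others between 769 and 778. Icam1 in Con-DHT had a ratio of 0.953, with liver 2 at 118 and the others between 193 and 197. Vsig4 in Con-DHT had a ratio of 0.924, with liver 1 at 389 and the others between 287 and 295. Acta2, the actin of smooth muscle, had a ratio of 0.868 in Con-Veh, with liver 3 at 50.9 and the others between 27.9 and 30.9. Alas2, the heme synthesis enzyme of red cell precursors, had a ratio of 0.851 in Con-DHT, with liver 3 at 597 and the others between 891 and 943. Hba-a1, an alpha globin gene with a near-identical copy, had a ratio of 0.863 in Con-DHT, with liver 4 at 4475 and the others between 2111 and 2434. None of the 10 sinusoidal endothelial genes was among them. The 6 genes most correlated with the panel and the genes named after their values were seen were not checked in this way.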

How the results depend on the processing

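Of the 2 lower calls in the panel, 1 was left under spike-in scaling and pan-endothelial scaling (Lyve1) and under limma without trend and edgeR (Stab2, with Lyve1 at an adjusted p of 0.076 and 0.052), 3 were made by DESeq2, and leaving out 1 library gave 0 to 2, with 0 without Con-Veh 4 and without Con-DHT 1. The causes were not tested. Over all genes the 1032 calls became 648 with a mean of at least 50, 636 under spike-in scaling, 1569 with DESeq2 and 638 to 897 with 1 library left out. Other sinusoidal genes gave 0 to 1 calls with 1 library left out. The 1 pan-endothelial call became 0 under equal total without Mup genes, spike-in scaling, no trend and the replicate block, 2 with DESeq2 and 0 to 2 with 1 library left out. The VEGF list gave 1 call under equal total without Mup genes and with DESeq2, and 0 to 1 with 1 library left out. The 2 continuous vessel calls became 1 under spike-in scaling, a higher one, 1 without trend, 3 (1 of them higher) under equal total without Mup genes, array weights and DESeq2, and 1 to 3 with 1 library left out. The angiocrine list gave 0 throughout these settings.

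Spike-in scaling raised the median of all genes by 0.20 and pan-endothelial scaling did likewise, so that small negative values turn by construction. With spike-in scaling Clec4g was at -0.15, Cdh5 at -0.17, Oit3 at -0.20 and Ehd3 at 0.35. Relative to the shifted median, Clec4g, Cdh5 and Oit3 were at -0.34, -0.36 and -0.39, which repeats the main comparison by construction. Signs turned under spike-in scaling for Fcgr2b (0.012), Pecam1 (0.013), Eng (0.016), Vegfa (0.034), Notch1 (0.052), Plvap (0.20) and Myh11 (0.13), and under pan-endothelial scaling for Fcgr2b (0.016) and Pecam1 (0.018). Plvap was at 0.0040 with an equal upper quartile and 0.098 with an equal total without Mup genes, where Myh11 was at 0.029. Myh11 was at 0.11 with edgeR and 0.10 with DESeq2, Dcn at -0.015 and -0.018, and Spp1 at -0.033 with array weights. With 1 library left out, log2 fold changes ran from -0.088 to 0.10 for Kdr, -0.0093 to 0.19 for Tek, -0.19 to 0.19 for Plvap, -0.0043 to 0.22 for Prox1, -0.12 to 0.29 for Dcn, -0.36 to 0.33 for Myh11 and -0.10 to 0.057 for Spp1. In the same way Vegfa ran from -0.21 to -0.074, Notch1 from -0.32 to -0.052 and Eng from -0.26 to -0.11. Flt4 ran from -0.54 to -0.21, Ehd3 from 0.075 to 0.24 and Bmp6 from 0.23 to 0.48. None of these genes passed the test in the main comparison.

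The replicate numbers did not pair the livers, with correlations of deviations of -0.19, -0.0060, -0.02 and -0.08 for numbers 1 to 4. With the number as a replicate block 700 genes were called, and Stab2 (adjusted p = 0.018) and Lyve1 (adjusted p = 0.017) were called as before, while S1pr1 (adjusted p = 0.093) and Clec4f (adjusted p = 0.079) were not.

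What could be detected with 4 livers per group depended on the SE of each gene, such as 0.08 for Plcg1 and 0.17 for Tek. Spike-in shares of counted reads ran from 1.68% in Con-Veh 4 to 3.61% in Con-Veh 1, and this range enters the spike-in scaling. Under that scaling the limma adjusted p rose from 0.018 to 0.88 for Stab2. It fell from 0.039 to 0.023 for Lyve1 and from 0.0023 to 3.2e-15 for C6. The part of the spike-in range in these changes was not tested.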

Other observations

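Markers of liver cells outside the sinusoidal wall gave few calls. In 11 genes of stellate cells and fibroblasts none was called by limma, edgeR or DESeq2, and 1 was lower at an unadjusted p under 0.05. That gene was Col1a1, a fibrillar collagen, at 203, 109, 690 and 97.5 in Con-Veh livers 1 to 4 and 97.1, 51.3, 40.8 and 115 in Con-DHT livers 1 to 4 (log2 fold change -1.48, adjusted p = 0.15 by limma). Con-Veh 3 had the highest value, and without it the log2 fold change was -0.88 (adjusted p = 0.22). Under spike-in scaling Col1a1 was called lower (log2 fold change -1.29, adjusted p = 0.0023 by limma), though its fold change was smaller than in the main comparison. Why the p-value fell was not tested. Dcn, a proteoglycan and the most abundant of that list by normalized count, had a log2 fold change of 0.08. None of 3 smooth muscle and 7 cholangiocyte genes was called by the 3 tools or had an unadjusted p under 0.05, with log2 fold changes of 0.57 for Acta2, -0.07 for Myh11, -0.28 for Sox9 and 0.01 for Spp1.

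Cd4, the only tested gene of the T and NK cell list and also made by other immune cells, rose from 11.4 ± 1.77 to 30.2 ± 4.23 (log2 fold change 1.34, adjusted p = 0.0066 by limma). Both tested B and plasma cell genes, Jchain and Cd79b, were lower at an unadjusted p under 0.05 and neither was called by the 3 tools, with Jchain at a log2 fold change of -0.72 (adjusted p = 0.17 by limma). Their summed count had a ratio of 0.593 with no overlap. The 1 tested neutrophil gene, Ltf, was at 10.6 ± 6.29 and 20.2 ± 8.42 (adjusted p = 0.27 by limma). Of 7 erythroid and platelet genes limma and edgeR called none, DESeq2 called Alas2 higher, and Alas2 (log2 fold change 0.81, adjusted p = 0.078 by limma) was higher and Hbb-bs (-0.71) lower at an unadjusted p under 0.05, with Hba-a1 at -0.66 (adjusted p = 0.25 by limma). Of 6 hepatocyte genes limma and edgeR called none, DESeq2 called Apob higher and Fgb and Ahsg lower, and 1 was lower at an unadjusted p under 0.05, the fibrinogen gene Fgb (log2 fold change -0.68, adjusted p = 0.10 by limma). Alb was at -0.47 (adjusted p = 0.52 by limma).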
